A study of Mus musculus with 60 samples.

Results

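Immediate early response genes are transcribed within minutes of a signal at the cell surface or of stress, from transcription factors that the cell already holds, and their mRNAs are short lived. The products of Fos, Fosb, Jun, Junb and Atf3 are leucine zipper proteins that pair to form or to oppose the transcription factor AP-1. Egr1 and Nr4a1 encode a zinc finger factor and an orphan nuclear receptor, and both are induced in lymphocytes by antigen receptor signalling. Dusp1 encodes a phosphatase that switches off MAP kinases, the kinases that induce the group. Btg2 encodes an antiproliferative protein that also responds to p53, and Ier2 encodes a small nuclear protein. Handling and dissociation of tissue are known to induce these genes as well. The members were these 10 genes, and all probe sets annotated to 1 of them were taken, which gave 12 of the 45037 probe sets of the 2 arrays. Jun and Btg2 had 2 probe sets each. All 12 lay on the 430A array, and all 12 passed the filter on dim probe sets.

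Spleen leukocytes of female mice were measured in NOD, the strain that develops autoimmune diabetes spontaneously, and in 2 control strains, NON, a diabetes-resistant relative of NOD, and C57BL/6 (C57), a more distant strain. Each strain was sampled at 4 weeks and at 2 weeks of age, with 5 mice per group and 30 mice in all. Leukocytes are first seen around the islets of NOD mice at about the older of these ages. No mouse carried a transgene, and the cells were neither treated nor cultured before RNA extraction. Different mice were used at each age.

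Levels are given as signals, the linear intensity that the MAS 5.0 software assigns to a probe set. Each difference is given on the log2(signal + 10) scale with its standard error (SE) from limma, and a probe set was called at an adjusted p under 0.05 over all 38293 probe sets kept. The p-values measure the spread between single mice. The median correlation of a mouse with the others of its group was 0.824 to 0.876 in 29 mice, and 0.739 in replicate 3 of the 4 week old NOD mice. Calls that changed without that mouse, and the strain and age differences of Btg2, are given with and without it. Markers of B cells, T cells and neutrophils had signal in every group, as the label of spleen leukocytes implies. In RNA of a mixed population, fewer cells of a type and less RNA per cell cannot be told apart.

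The promoters of 8 members were in the RefSeq table (GRCm38.p6) and show what the group shares in sequence. Ier2 had no entry and Egr1 is not shown. In the 250 bases before the start site, 7 of the 8 held the core of the cAMP response element (CRE), TGACG, on either strand, against 17.8% of all 32851 promoters. Jun did not hold it. The full palindrome TGACGTCA, which contains the core on both strands, was in 2 of the 8 (Dusp1 and Btg2), against 1.5% of all. The GC box GGGCGG was also in 7 of the 8 (32.7% of all), and the CCAAT box in 3 (33.8% of all). The AP-1 site TGANTCA was in 0 of the 8 (6.7% of all), the CArG box in 0 of the 8 (1.5% of all) and the TATA box TATAAA in 1 (12.4% of all). Fos, Nr4a1, Dusp1 and Btg2 are printed because the results below turn on them, each 5′ to 3′ on its own strand with every TGACG or its complement CGTCA in capitals. Fos lies on chromosome 12 (chr12:85473640-85473889, plus strand), Nr4a1 on chromosome 15 (chr15:101266596-101266845, plus), Dusp1 on chromosome 17 (chr17:26508473-26508722, minus) and Btg2 on chromosome 1 (chr1:134079156-134079405, minus).
Fos: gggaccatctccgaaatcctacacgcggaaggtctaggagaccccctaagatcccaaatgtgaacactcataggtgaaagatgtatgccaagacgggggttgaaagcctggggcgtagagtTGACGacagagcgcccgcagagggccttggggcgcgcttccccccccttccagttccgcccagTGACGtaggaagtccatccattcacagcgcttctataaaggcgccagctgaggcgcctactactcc
Nr4a1: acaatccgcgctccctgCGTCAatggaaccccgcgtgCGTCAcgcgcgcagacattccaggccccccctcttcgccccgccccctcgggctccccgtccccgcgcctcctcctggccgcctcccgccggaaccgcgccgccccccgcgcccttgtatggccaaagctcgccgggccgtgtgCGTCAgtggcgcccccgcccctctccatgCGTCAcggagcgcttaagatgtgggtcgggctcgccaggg
Dusp1: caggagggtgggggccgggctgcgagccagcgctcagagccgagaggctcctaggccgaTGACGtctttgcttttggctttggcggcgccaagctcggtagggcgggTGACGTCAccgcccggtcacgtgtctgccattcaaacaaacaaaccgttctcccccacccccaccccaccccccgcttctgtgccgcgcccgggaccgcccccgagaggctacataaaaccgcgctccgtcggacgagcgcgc
Btg2: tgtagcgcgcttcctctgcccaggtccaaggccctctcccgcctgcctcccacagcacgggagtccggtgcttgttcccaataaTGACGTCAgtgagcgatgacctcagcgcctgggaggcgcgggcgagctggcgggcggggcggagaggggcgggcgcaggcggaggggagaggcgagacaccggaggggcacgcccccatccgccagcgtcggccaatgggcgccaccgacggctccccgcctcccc
Fos held 2 such cores, Nr4a1 4, Dusp1 3 and Btg2 2. Both cores of Btg2 lay within its palindrome, while Dusp1 also held a core outside its palindrome. Whether these letters relate to the signals among mice was not tested. Bases farther from the start site and variants of the searched letters were left out, so a count of 0 does not mean that a gene lacks such a site. A match of letters is a description and not a measured binding site.

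The early response genes differed widely between mice of the same strain and age. Fos, the AP-1 subunit that gives the family its name, had signals of 4235, 1746, 3296, 3873 and 3573 in 4 week old NOD mice and of 3932, 1909, 2459, 3069.5 and 1097 in 2 week old NOD mice. In NON mice it was 5274, 4481, 3508, 3442 and 5291 at 4 weeks and 2884, 4799, 4182, 1269 and 215 at 2 weeks. In C57 mice it was 5983, 4353, 1561, 1729 and 995 at 4 weeks and 3307, 2475, 4158, 4057 and 2432 at 2 weeks. The brightest NON mouse of 2 weeks was 22.4-fold above the dimmest of its group, and the brightest C57 mouse of 4 weeks 6.01-fold, so the range within these groups was wider than any difference between group means. All groups overlapped.

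**Figure D1:**
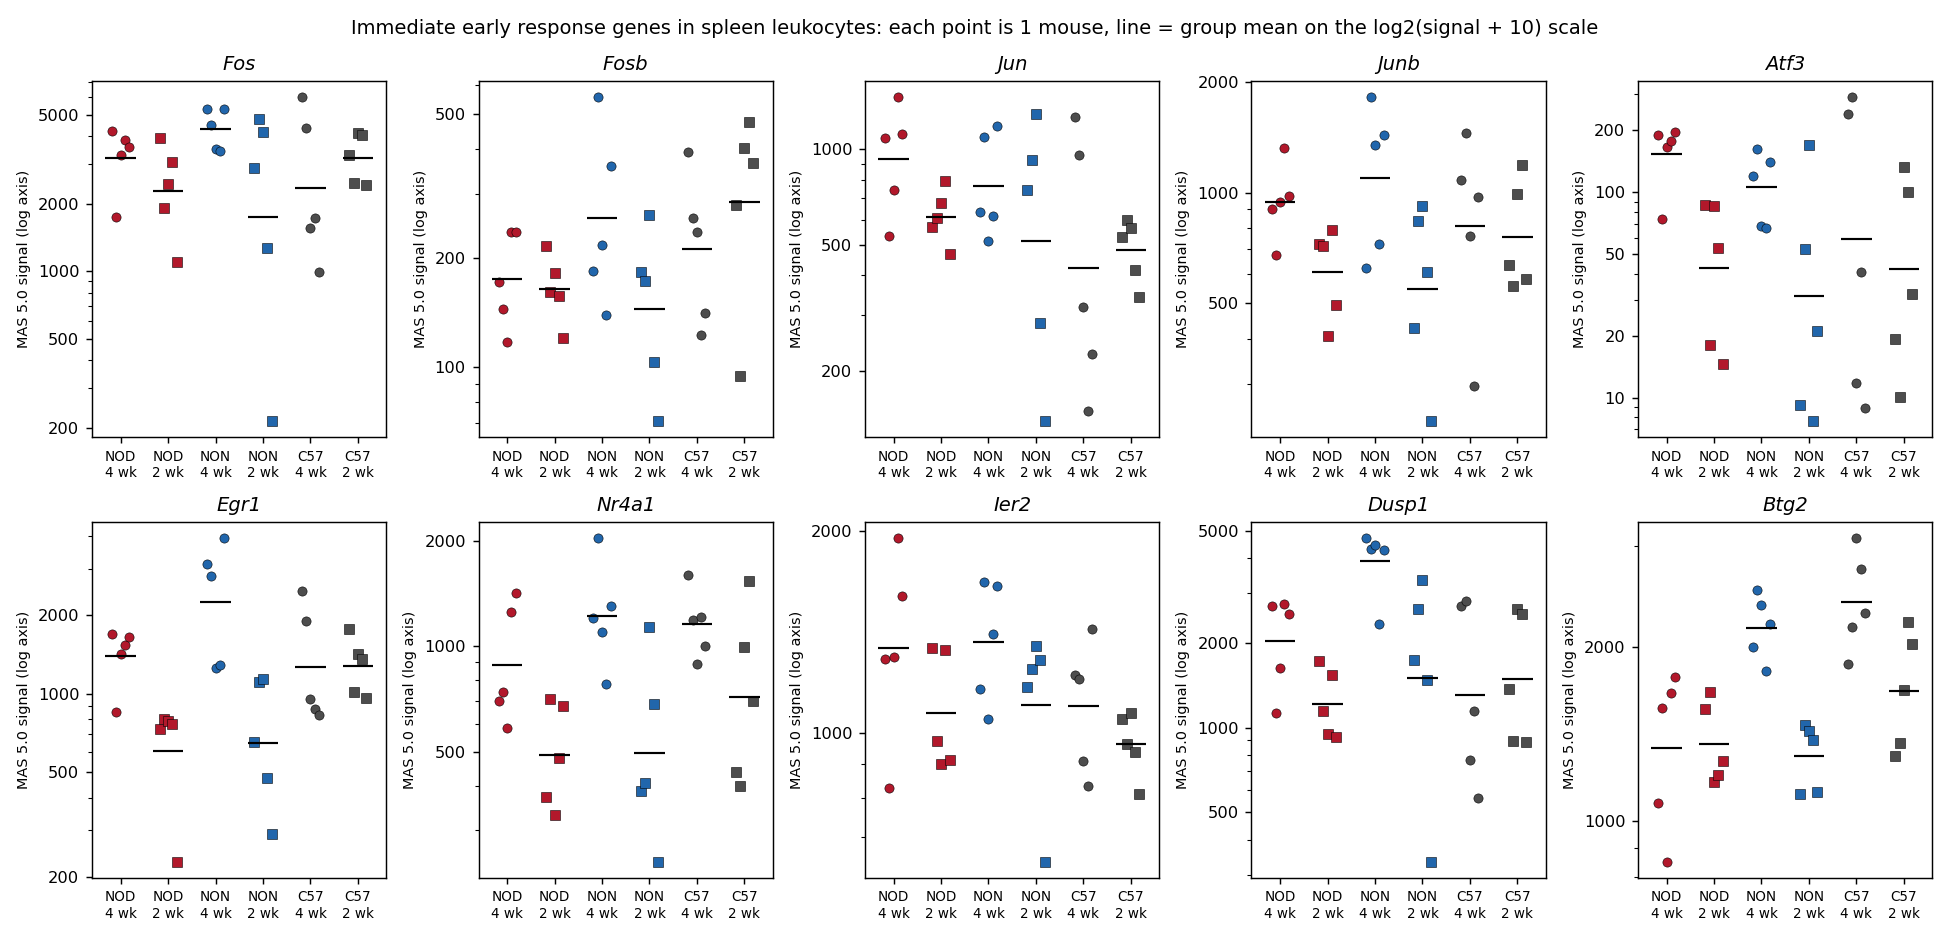
MAS 5.0 signal (log axis) of the brightest probe set of each of the 10 genes, with 1 point per mouse (5 per group; circles 4 weeks, squares 2 weeks) and a line at the group mean of log2(signal + 10). The groups overlap for most genes, and Fos in the 2 week old NON mice runs as low as 215 and as high as 4799.

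Dusp1 and Atf3 had a similar range. Dusp1, the MAP kinase phosphatase, had signals of 2708, 1127, 1628, 2753 and 2533 in 4 week old NOD mice and of 1720.2, 1145, 947, 1535 and 925 in 2 week old NOD mice. It was 4726, 4299.9, 4474, 2328 and 4295 in NON mice at 4 weeks and 1743, 2639.9, 3339, 1480.4 and 334 at 2 weeks. In C57 mice it was 2696, 2825, 769, 1147 and 564 at 4 weeks and 1377, 898, 2646, 2545 and 891 at 2 weeks. The lowest NON mouse of 2 weeks (replicate 5) was the same for Dusp1 and Fos, and so were the pair of high C57 mice of 4 weeks (replicates 1 and 2). Atf3, a stress-induced partner of Jun, was dim (mean signal 92.4 over 30 mice), and its lowest mice were near background. Its signals were 191, 73.8, 166, 179 and 196 in 4 week old NOD mice and 86.8, 18, 85.6, 53.4 and 14.5 in 2 week old NOD mice. In NON mice they were 121, 163, 68.7, 67.2 and 139.8 at 4 weeks and 9.2, 52.7, 169, 7.7 and 21 at 2 weeks. In C57 mice they were 240.4, 290.4, 11.8, 40.9 and 8.9 at 4 weeks and 19.2, 10.1, 133.5, 100.4 and 32.1 at 2 weeks. The high C57 pair of 4 weeks was again replicates 1 and 2, and the ages overlapped in each strain.

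Expressed as the pooled standard deviation (SD) of log2(signal + 10) within groups (24 residual degrees of freedom), the spread had a median of 0.66 over the 10 genes, against 0.56 over all 38293 probe sets, and 1 of the 10 (Atf3, 1.19) lay above the 90th percentile of all. It was 0.95 for Fos, 0.83 for Jun (1417409_at) and 0.81 for Dusp1. Egr1 (0.66), Fosb (0.65), Junb (0.62) and Nr4a1 (0.61) were near the median of all probe sets. Bright probe sets usually vary less. Among probe sets of similar mean signal, Fos lay at the 99.2 percentile of spread (of 619), Dusp1 at 99.1 (of 1170), Jun at 97.4 (of 4572), Atf3 at 97.2 (of 10052) and Egr1 at 96.5 (of 2245). Junb and Nr4a1 lay at 92.3 and 92.1, Btg2 1416250_at at 86.7 and Fosb at 64.2. Ier2 (SD 0.34) and the brighter Btg2 probe set (SD 0.30) lay at 56.2 and 42.3, in the middle of such probe sets. Jun also differed by probe set, since 1448694_at had an SD of 0.43 and lay at 50.6.

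Mice that were high for 1 early response gene were high for most others, apart from Btg2. After each group's mean was removed, the 45 pairs among the 10 genes had a median Pearson r of 0.60 over 30 mice. All mice share 1 array design and 1 protocol, and these values are descriptions with no test. Without Btg2, a choice made after its values were seen, 36 pairs had a median r of 0.63 and a range of 0.31 to 0.91, and 28 of the 36 were over 0.5. The closest pair was Fos with Dusp1, at r = 0.91 (Spearman's rho 0.90, and r = 0.87 without the 2 mice farthest from the median of Fos). Fos followed Jun at r = 0.84 (rho 0.84, 0.81 without the 2 mice) and Egr1 at r = 0.82 (rho 0.79, 0.83 without the 2 mice). It followed Nr4a1 less closely, at r = 0.37 (rho 0.27, 0.27 without the 2 mice). Btg2 stood apart, with a median r of 0.03 with the other 9 genes and a range of -0.10 to 0.55. The highest of these was with Nr4a1 (r = 0.55, rho 0.56), and r with Fos was 0.01. Many genes outside the members moved with Fos as well. In a ranking of 16200 genes by r with Fos, with Fos itself at 1, Dusp1 was at 2, Jun at 4 and Egr1 at 7. Atf3 was at 131, Fosb at 199, Ier2 at 244, Junb at 283, Nr4a1 at 1487 and Btg2 at 6933.

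**Figure D2:**
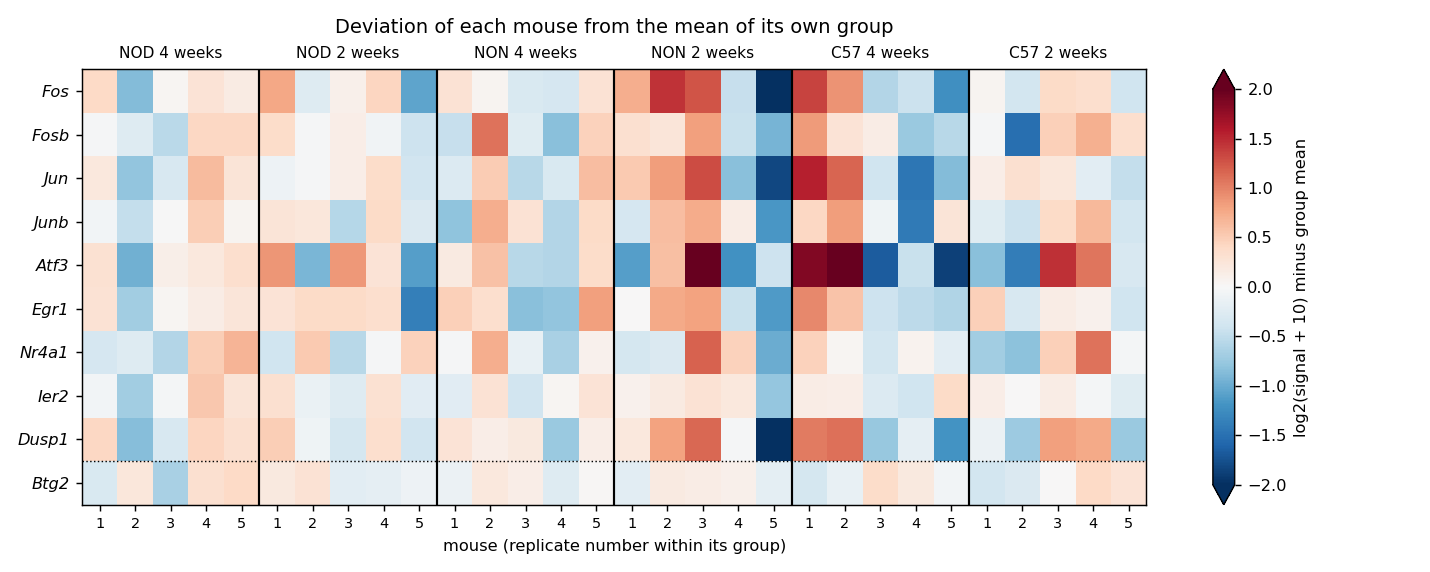
Deviation of each of 30 mice (columns, by group and replicate number) from the mean of its own group for the brightest probe set of each gene (rows), in log2(signal + 10) units, with colours saturating at the ends of the scale. Columns are mostly of 1 colour above the dotted line, such as NON 2 weeks replicate 5 (0 of 9 genes above the group mean) and C57 4 weeks replicates 1 and 2 (9 of 9), while Btg2 stays pale.

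Single mice were high or low throughout. Of the 9 genes other than Btg2, 0 were above the group mean in NON replicate 5 at 2 weeks and in NOD replicate 2 at 4 weeks. All 9 were above it in 8 mice, namely NOD replicates 4 and 5 at 4 weeks, NON replicates 2 and 5 at 4 weeks, NON replicate 3 at 2 weeks, C57 replicates 1 and 2 at 4 weeks and C57 replicate 3 at 2 weeks. The 9 genes were on average 1.37 below the group mean (log2) in NON replicate 5 at 2 weeks and 1.07 above it in NON replicate 3 of the same group. Without NON replicate 5 at 2 weeks the median r over all 45 pairs was 0.51.

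**Figure D3:**
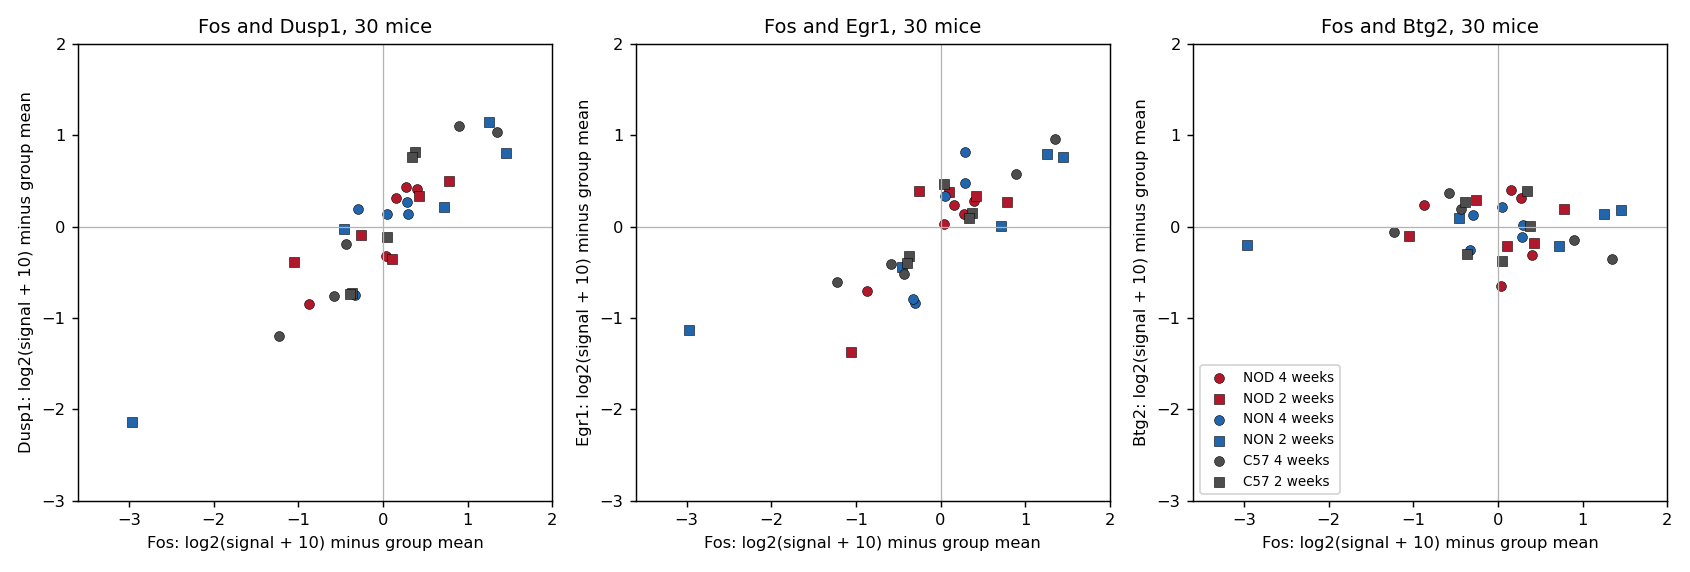
Deviation from the group mean of Dusp1, Egr1 and Btg2 (y axes) against that of Fos (x axes), in log2(signal + 10) units, with 1 point for each of 30 mice. Dusp1 (r = 0.91) and Egr1 (r = 0.82) lie along a diagonal, and Btg2 (r = 0.01) lies along the horizontal.

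Of the summed signals of 5 related lists, 1 followed Fos closely. A sum is weighted towards the brightest genes of its list. The summed signal of 26 further early response genes had r = 0.90 with Fos (rho 0.85), and among its members were Zfp36 (r = 0.78), which encodes an mRNA-destabilising protein, Nfkbia (0.77) and Tnfaip3 (0.75), inhibitors of NF-kB, Klf4 (0.74), a transcription factor, and Cd69 (0.73), an early activation marker of lymphocytes. For Klf2, a factor of resting lymphocytes on the same list, r was -0.05. The summed signal of upstream and feedback regulators had r = 0.40 (rho 0.27), that of AP-1 and Egr relatives 0.39 (rho 0.20) and that of early cytokines and chemokines 0.31 (rho 0.45). On that last list the dim chemokine genes Ccl3 (r = 0.84, rho 0.87) and Cxcl2 (r = 0.77, rho 0.80) followed Fos more closely than the sum. Over 16200 genes, the 8 closest to Fos outside the members were Ncoa3 (r = 0.85), a coactivator of nuclear receptors, the chemokine gene Ccl3 (0.84), the kinase gene Pim3 (0.83), Skil (0.82), a repressor of TGF-beta signalling, Eif4a2 (0.80), an RNA helicase of translation, the transcription factor gene Ets1 (0.79), Cytip (0.79) and Epc1 (0.78). Without the 2 mice farthest from the median of Fos, r was 0.85 for Ccl3 and 0.72 for Ncoa3. Ccl3 was as uneven as Fos, with a lowest, median and highest signal of 9, 87.6 and 299 in 4 week old C57 mice and 3.7, 183 and 191 in 2 week old NON mice.

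Heat shock genes, which are known to rise under many stresses, followed Fos weakly (12 of 13 genes measured, r = 0.32, rho 0.38 for their summed signal). The summed markers of cell types had r between -0.43 and 0.54 with Fos, and the highest of these were above the r of Nr4a1 (0.37) and of 4 of the 5 related lists. Over 30 mice, r was 0.54 for T cell markers (5 of 6 measured, rho 0.47), 0.48 for neutrophil markers (5 of 5, rho 0.47), 0.45 for B cell markers (4 of 5, rho 0.11) and -0.43 for erythroid markers (4 of 5, rho -0.40). The 3'/5' signal ratio of Actb, a measure of RNA integrity, had r = 0.47 and that of Gapdh r = 0.17. With the mean of the 9 genes other than Btg2, r was 0.28 for the Actb ratio and 0.04 for Gapdh. The log2 median signal of the 430A array had r = -0.38 with Fos (rho -0.24). The median correlation of a mouse with its group had r = -0.11 with Fos and 0.54 with Btg2. The part of cell composition, of RNA integrity and of these array measures in the spread was not tested. Over the groups the Actb ratio was 1.12 to 3.87 (NOD, 4 weeks), 0.99 to 2.62 (NOD, 2 weeks), 1.31 to 7.02 (NON, 4 weeks), 1.18 to 6.62 (NON, 2 weeks), 1.02 to 3.40 (C57, 4 weeks) and 2.04 to 3.12 (C57, 2 weeks).

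With age, Egr1 and Nr4a1 were higher at 4 weeks when averaged over the 3 strains, and no member was called in any strain alone. Within strains, 0 of 12 probe sets were called in NOD mice (0.0157% of all probe sets kept were), 0 of 12 in NON mice (0.0601% of all) and 0 of 12 in C57 mice (0.107% of all). At an unadjusted p under 0.05, 5 of 12 passed in NOD mice (7.49% of all), 6 of 12 in NON mice (11.1% of all) and 1 of 12 in C57 mice (8.22% of all). These counts rest on probe sets that move together, so the members are not independent of each other. The median log2 difference over the 10 genes was 0.61 in NOD mice (9 of 10 positive, and 49.8% of all probe sets kept), 1.14 in NON mice (10 of 10, and 50.2% of all) and 0.05 in C57 mice (5 of 10, and 53.3% of all). The median over all probe sets kept was at most 0.03.

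Egr1, the zinc finger factor, had signals of 1697, 850.4, 1422, 1535 and 1642 in 4 week old NOD mice and of 733, 797, 789, 765 and 228 in 2 week old NOD mice. In NON mice it was 3123, 2815, 1249.5, 1283 and 3933 at 4 weeks and 654, 1106, 1135, 475 and 291 at 2 weeks. In C57 mice it was 2476, 1888, 949.6, 877 and 825 at 4 weeks and 1764, 1013, 1415, 1355 and 964 at 2 weeks. Every 4 week old mouse was above every 2 week old mouse in NOD and in NON, and the ages overlapped in C57. Of all probe sets kept, 0.763% in NOD mice and 1.67% in NON mice were higher at 4 weeks without overlap, beside 1 of 12 member probe sets in NOD mice (Egr1) and 2 of 12 in NON mice (Egr1 and Btg2 1448272_at). The log2 difference of Egr1 was 1.18 (SE 0.37) in NOD mice (limma adjusted p = 0.5), 1.77 (SE 0.45) in NON mice (adjusted p = 0.184) and -0.01 (SE 0.34) in C57 mice (adjusted p = 0.997). Fitted with all 30 mice, which pools the spread of the 6 groups, the NON difference was called (adjusted p = 0.0237).

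Nr4a1, the orphan nuclear receptor, had signals of 701, 741, 586, 1251 and 1417 in 4 week old NOD mice and of 372, 709, 331, 482 and 678 in 2 week old NOD mice. In NON mice it was 1201, 2036, 1099, 780.3 and 1299 at 4 weeks and 389, 408, 1137, 686 and 244 at 2 weeks. In C57 mice it was 1598, 1188, 893, 1213 and 1002 at 4 weeks and 439, 400.1, 999, 1533 and 697 at 2 weeks. The ages overlapped in each strain, and the log2 difference was 0.83 (SE 0.32) in NOD mice, 1.28 (SE 0.40) in NON mice and 0.68 (SE 0.36) in C57 mice.

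Atf3, the stress-induced partner of Jun, had the highest log2 difference and the lowest p of the members in NOD mice, at 1.63 (SE 0.45, limma adjusted p = 0.442). It was at 1.49 (SE 0.59, adjusted p = 0.382) in NON mice and at 0.40 (SE 0.88, adjusted p = 0.949) in C57 mice. Btg2 1448272_at was at -0.03 (SE 0.25) in NOD mice, 0.74 (SE 0.19) in NON mice and 0.51 (SE 0.21) in C57 mice. Its second probe set, 1416250_at, was at -0.03 (SE 0.28), 0.19 (SE 0.31) and 0.50 (SE 0.32).

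Averaged over the 3 strains in the fit of 30 mice, a comparison added after the results by strain were seen, the log2 difference between 4 and 2 weeks was 0.98 for Egr1 (SE 0.24, limma adjusted p = 0.0149) and 0.93 for Nr4a1 (SE 0.22, adjusted p = 0.0116). These 2 of 12 probe sets were called, both higher at 4 weeks, against 3.19% of all probe sets kept (1.31% higher). Btg2 (1448272_at) was at 0.41 (SE 0.12, adjusted p = 0.0538), and without NOD replicate 3 of 4 weeks at 0.46 (SE 0.11, adjusted p = 0.0138), which was called. The other Btg2 probe set, 1416250_at, was at 0.22 (SE 0.18, adjusted p = 0.661), so the near call rests on 1 of its 2 probe sets. Atf3 was at 1.17 (SE 0.41, adjusted p = 0.143) and Junb, an AP-1 subunit, at 0.57 (SE 0.22, adjusted p = 0.193). Fos was at 0.45 (SE 0.33, adjusted p = 0.626) and Fosb at 0.15 (SE 0.23, adjusted p = 0.851). The calls of Egr1 and Nr4a1 held without each of the 30 mice in turn, NOD replicate 3 of 4 weeks included, with adjusted p of 0.00929 to 0.029 for Egr1 and 0.00314 to 0.0244 for Nr4a1. Markers of T cells also rose with age in this comparison (5 of 5, median log2 difference 0.67), as did 3 of 4 markers of NK cells (median 0.60) and 1 each of dendritic cells (Itgax, of 4), B cells (Cd22, of 4) and plasma cells (Jchain, of 4). Markers of neutrophils fell in 3 of 5 (Camp, Ltf and Ngp, median -0.88) and those of megakaryocytes and platelets in 2 of 4 (Ppbp and Gp9, median -0.94), beside 1.88% of all probe sets kept that were lower. The summed signal of the T cell markers was 4381 to 6136 at 4 weeks and 2445 to 5429 at 2 weeks in NOD mice, 2732 to 3724 and 799 to 1959 in NON mice, and 5242 to 7542 and 2920.1 to 5673 in C57 mice. None of the 5 was at 0 in any mouse, but neither was the dim Ccl3 (lowest signal 3.7, in 2 week old NON mice), so this does not show presence. The summed signal of the neutrophil markers was 27133 to 47851 at 4 weeks and 54027 to 115372 at 2 weeks in NOD mice, 50580.4 to 76577 and 44651 to 85136 in NON mice, and 20722 to 36765 and 54550.5 to 74469 in C57 mice. That of the NK cell markers was 2009 to 5040.4 at 4 weeks and 1924 to 3622 at 2 weeks in NOD mice, 4660.4 to 6138 and 999 to 3613 in NON mice, and 2493 to 4499.5 and 1619.9 to 3834 in C57 mice. That of the megakaryocyte and platelet markers was 1098 to 2263 at 4 weeks and 1003 to 4024 at 2 weeks in NOD mice, 448 to 1034.5 and 1149 to 3287 in NON mice, and 609 to 876 and 616 to 4514 in C57 mice. With the Gapdh 3'/5' ratio as a covariate, Egr1 and Nr4a1 were called as well. That ratio had r = 0.17 with Fos and 0.04 with the mean of the 9 genes other than Btg2, with group means removed. The part of RNA integrity in the age difference was not tested. The Actb ratio (r = 0.47 with Fos) was not used as a covariate. The part of the cell types in the age difference was not tested.

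**Figure D4:**
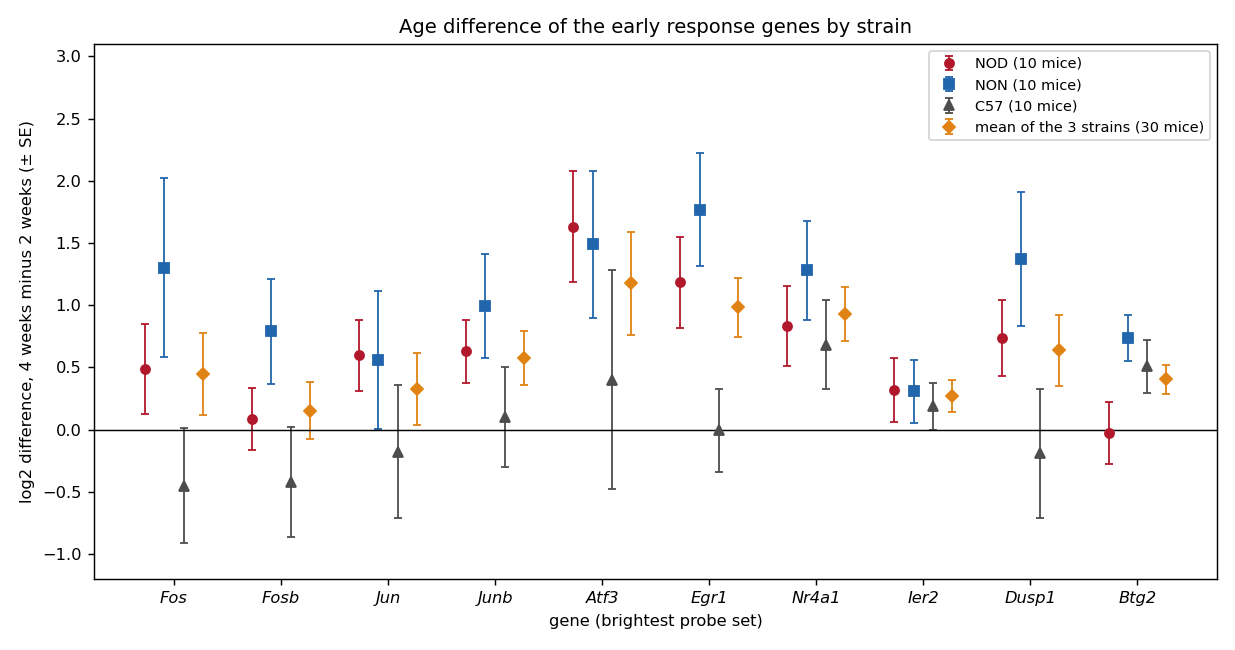
Log2 difference (4 weeks minus 2 weeks, ± SE) of the brightest probe set of each gene in NOD, NON and C57 mice (10 mice each) and as the mean of the 3 strains (30 mice). Most NOD and NON values lie above 0 and the C57 values lie around 0 for Fos, Jun, Egr1 and Dusp1. Egr1 (0.98) and Nr4a1 (0.93) passed the test in the mean of the strains.

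The difference between strains in the age difference was tested for NOD against the mean of NON and C57, and 0 of 12 members were called by limma (0% of all probe sets kept). At an unadjusted p under 0.05, 1 of 12 passed (Btg2 1448272_at), against 6.2% of all. Its value was -0.65, and -0.49 (SE 0.23) without NOD replicate 3 of 4 weeks. The value of the difference was 0.06 (SE 0.70) for Fos, 0.30 (SE 0.50) for Egr1 and 0.15 (SE 0.61) for Dusp1. Whether NON and C57 differed in it was not tested.

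Between strains, no member was called at either age. By limma's F-test over the 3 strains, 0 of 12 were called at 4 weeks (1.51% of all probe sets kept were) and 0 of 12 at 2 weeks (1.66% of all). For NOD against the mean of the controls, 0 of 12 were called at 4 weeks (0.804% of all) and 0 of 12 at 2 weeks (0.499% of all). Fos in NOD mice differed from the mean of the controls by 0.01 (SE 0.37) at 4 weeks and by -0.05 (SE 0.57) at 2 weeks. These errors leave room for sizeable differences either way.

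Btg2 came closest, in 1 of its 2 probe sets. Its signal at 1448272_at was 1078, 1574, 852, 1665 and 1774 in 4 week old NOD mice, against 2002, 2514, 2369, 1819 and 2194 in NON mice and 1870.2, 2169.5, 3094, 2729 and 2292 in C57 mice. Every NOD mouse of that age was below every NON mouse and every C57 mouse, which held for 1.28% of all probe sets against NON and 2.15% against C57. The log2 difference from the mean of the controls was -0.76 (SE 0.20, limma adjusted p = 0.0975), and -0.60 (SE 0.18, adjusted p = 0.196) without NOD replicate 3, the lowest of its group. In the fit of all 30 mice it was called (adjusted p = 0.0209), and without NOD replicate 3 that fit did not call it (-0.60, SE 0.17, adjusted p = 0.097). At 2 weeks the same probe set was at 1564, 1672, 1172, 1202 and 1271 in NOD mice, 1116, 1467, 1431, 1385 and 1125 in NON mice and 1295, 1367, 1691, 2212 and 2027 in C57 mice, and the strains overlapped. The second probe set, 1416250_at, did not show the pattern, with 728, 1082, 1180.4, 1960.2 and 1491 in NOD mice of 4 weeks, against 701, 1909, 1349.9, 975 and 1166 in NON mice and 1309.6, 1221, 1693, 1794 and 2259.7 in C57 mice (log2 difference -0.16, SE 0.26). The 2 probe sets followed each other at r = 0.52 among mice.

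In the F-tests over the strains, Dusp1 had the lowest unadjusted p after Btg2 at 4 weeks, and Egr1 the lowest at 2 weeks. Every 2 week old NOD mouse was below every 2 week old C57 mouse in Egr1 (at most 797 against at least 964), as were 2.1% of all probe sets, with a log2 difference of -1.06 (SE 0.40, adjusted p = 0.318). NON mice of 2 weeks were below C57 mice by a similar amount, at -0.96 (SE 0.40, limma adjusted p = 0.2995), with overlap. NOD against NON was at -0.10 (SE 0.40), so the lower Egr1 was not particular to NOD. Dusp1 at 4 weeks was 1.57 (SE 0.43) higher in NON than in C57 mice on the log2 scale (adjusted p = 0.145), and the strains overlapped.

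The remaining members showed no called difference and are given by their ranges. Fosb, a Fos relative, was 117 to 236 in NOD mice of 4 weeks and 119.9 to 216 in those of 2 weeks, against 139 to 555 and 71 to 262 in NON mice and 123 to 391 and 94.2 to 474 in C57 mice. Junb was 678 to 1324 in NOD mice of 4 weeks and 406 to 792 in those of 2 weeks, against 625 to 1819 and 239 to 917 in NON mice and 298 to 1450.2 and 557 to 1192 in C57 mice. Ier2 was the most even member after Btg2, at 829.7 to 1955 in NOD mice of 4 weeks and 901 to 1338 in those of 2 weeks, against 1052 to 1678 and 644 to 1351 in NON mice and 834 to 1431 and 811 to 1073 in C57 mice. Jun (1417409_at) was 533 to 1459 in NOD mice of 4 weeks and 468 to 793 in those of 2 weeks. In NON mice Jun was 515 to 1182 at 4 weeks and 139 to 1292 at 2 weeks, and in C57 mice 150.1 to 1264 and 343 to 600.1. For all 4 genes the strains and ages overlapped.

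Among the relatives of the members, Egr3, an Egr family factor of lymphocytes, was called between strains at 4 weeks by the F-test (1 of 12, beside the 1.51% of all). It had a mean signal of 628 ± 164 (SD, n = 5) in 4 week old NOD mice, 652 ± 194 in NON mice and 1849 ± 362 in C57 mice, with a log2 difference of -1.56 for NOD against C57 (SE 0.25, adjusted p = 0.00606) and -1.51 for NON against C57 (SE 0.25, adjusted p = 0.00819). At 2 weeks NON was also lower than C57 (-1.71, SE 0.37, adjusted p = 0.0296). Of 12 AP-1 and Egr relatives that passed the filter, 1 rose with age over the 3 strains (Egr2, 0.64, SE 0.12, adjusted p = 0.00146) and none fell, with a median log2 difference of 0.27 against 0.01 over all probe sets kept. The counts for this and the next lists stand beside the 1.31% of all probe sets kept that were higher at 4 weeks. Of the 26 other early response genes, 3 rose (Socs3, 1.21, SE 0.23; Ier5, 0.67, SE 0.14; Zfp36l1, 0.50, SE 0.14) and none fell, with a median of 0.32. Of 20 measured upstream and feedback regulators, 1 rose (Dusp4, a nuclear MAP kinase phosphatase, 1.48, SE 0.33) and none fell, with a median of 0.09. Of 8 early cytokine and chemokine genes, 1 rose (Il1b, 1.60, SE 0.19, adjusted p = 7.7e-06) and none fell, with a median of 0.44. Of 12 heat shock genes, 1 rose (Hspa1b, 0.76, SE 0.21) and none fell, with a median of 0.15. Between strains, Zfp36l2, an mRNA-destabilising protein, was the 1 call among the 26 (NOD against NON at 4 weeks, in which 0.582% of all were called), at a mean of 2819 ± 187 in 4 week old NOD mice and 5784 ± 1224 in NON mice (log2 difference -1.01, SE 0.19, adjusted p = 0.0281).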

How the data were processed

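Each of 30 mice had a 430A and a 430B array (60 arrays). Per the labels and methods, the authors computed a linear intensity per probe set in MAS 5.0 and scaled each array globally. The 2% trimmed mean of the deposited arrays is 250, which is not the target that the methods name. Probe sets were named from GEO's platform annotation. Probe sets under a signal of 50 in more than 25 of the mice were left out (38293 of 45037 remained), and log2(signal + 10) was tested with limma 3.58.1 in R 4.3.3, by age over 15 mice, by strain over 10 mice and, for differences in the age difference and the mean age difference, over 30 mice. p-values were adjusted by Benjamini-Hochberg over all probe sets kept, and the code was tested on simulated data. The log2(signal + 10) scale understates differences of dim genes such as Atf3. The number of mice limits the precision. Members and lists were chosen with earlier results of these data known. Of a gene with 2 probe sets, the brighter was used in counts of genes. All member probe sets are named, as are the 8 genes closest to Fos and up to 5 called genes of each list. Replicate numbers did not pair mice across groups.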

Additional observations from a re-analysis of the deposited data

Results flagged for a closer look

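In 6 of 72 groups of 5 mice, 1 mouse lay far from the other 4 in a member's signal by Dixon's criterion. Chance alone gives such a gap in about 1 in 20 groups, and the members move together, so the 6 are not independent. Low mice were NOD replicate 2 at 4 weeks in Atf3 (73.8, with the next at 166), NOD replicate 5 at 2 weeks in Egr1 (228, with the next at 733), NON replicate 5 at 2 weeks in Ier2 (644, with the next at 1174) and NON replicate 4 at 4 weeks in Dusp1 (2328, with the next at 4295). High mice were NON replicate 3 at 2 weeks in Atf3 (169, with the next at 52.7) and NON replicate 4 at 2 weeks in Btg2 1416250_at (1767, with the next at 995).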

How the results depend on the processing

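None of the member differences at an unadjusted p under 0.05, those between 2 strains included, changed direction under the alternatives run. Fitting all 30 mice moved the count of members called to 1 in the strain test at 4 weeks, to 1 for NOD against the mean of the controls at 4 weeks (both Btg2 1448272_at) and to 1 for the age difference in NON mice (Egr1), against 0 in the fits by age or by strain. That fit without NOD replicate 3 of 4 weeks, added after the data were seen, gave 0, 0 and 2 (Egr1 and Btg2 1448272_at). The other alternatives (pseudocounts of 1 and 50, other filters, quantile normalization, median centring, the methods' ANOVA or t-test, the Gapdh 3'/5' ratio as a covariate, and each mouse left out) gave 0 in these 3 comparisons and 0 in the other comparisons by strain or age. For the mean age difference of the 3 strains the count was 2 or 3 under all alternatives, with Btg2 1448272_at as the third. Leaving out 1 mouse at a time gave counts of 0 to 0 in each comparison by strain or age, 2 to 3 in the mean age difference, a median r among members of 0.51 to 0.63 and a median SD of 0.63 to 0.67, against 0.60 and 0.66 with all mice. Same-numbered mice of different groups correlated at a median of 0.04 over 75 pairs (8 over 0.1), so the numbers were not taken as pairs, and with a replicate block 0 members were called in each comparison by strain or age and 2 in the mean age difference. Over all probe sets, the age calls in NOD, NON and C57 mice were 56, 560 and 176 in the fit of 30 mice, against 6, 23 and 41 in the fits by strain; with a replicate block they were 0, 0 and 1, and over the other alternatives with all mice 1 to 14, 11 to 122 and 29 to 89. The strain calls were 367 to 960 at 4 weeks and 472 to 993 at 2 weeks over the alternatives with all mice, against 578 and 635, and those of NOD against the controls 147 to 570 and 127 to 271, against 308 and 191. Of the calls of NOD against the controls, 109 of 308 and 81 of 191 were higher in NOD, and 74 of 322 and 55 of 205 with median centring.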
